A study of Mus musculus with 20 samples.

Results

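The fatty acid oxidation and ketogenesis genes of the mouse liver were followed in mice given IL-1β, a cytokine that starts inflammatory signaling. A list of 36 genes was taken by gene symbol from the tables of counts, 20 for mitochondrial enzymes and carriers, 10 for peroxisomal ones and 6 for the uptake, binding and activation of fatty acids in the cell. All 36 had a row in every table and passed the minimum for detected genes, out of 37681 genes listed and 15578 tested. The mice were 12 weeks old, male and of the C57/BL6 strain (C57/B6J in the growth protocol), and all carried the same genotype as far as the labels tell. Liver was collected 4 hours after 5 mice had received IL-1β at 20 µg/kg (mice ILB_9577, ILB_9578, ILB_9579, ILB_9582 and ILB_9583) and 5 had received saline (mice UNT_9574, UNT_9575, UNT_9576, UNT_9580 and UNT_9584, called untreated). RNA of each liver was sequenced on an Illumina HiSeq and on an Ion Torrent Proton, and the reads of each platform were aligned with GSNAP, STAR or STAR + Bowtie2, which gave 6 tables of 10 libraries. A mouse therefore appears on both platforms, and calls that recur across tables are repeated readings of the same 10 livers.

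Fatty acids enter the hepatocyte through carriers such as CD36 and FATP2 (Slc27a2), are bound in the cytosol by FABP1 and are activated to acyl-CoA by long-chain synthetases such as ACSL1. Long-chain acyl groups pass into the mitochondrion on carnitine (CPT1A, the SLC25A20 carrier, CPT2) and are shortened in cycles of dehydrogenation, hydration, a second dehydrogenation and thiolysis, and much of the acetyl-CoA made in the fasting liver leaves as ketone bodies. Peroxisomes run a parallel pathway that shortens very-long-chain, branched and dicarboxylic acids and bile acid precursors. Many of these genes are known targets of the nuclear receptor PPARα.

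Library totals ran from 10568530 to 12008800 counts on Illumina and from 12199530 to 16439680 on Ion Torrent. Levels are given as CPM of the library total after TMM scaling (normalised CPM), and fold changes as log2 of IL-1β over untreated with their standard error, from edgeR's quasi-likelihood test within a table, with p-values adjusted by Benjamini-Hochberg over the 15578 genes. A gene was called at an adjusted p below 0.05. The libraries of untreated mouse UNT_9584 agreed less with each other than those of the other mice: across genes, their deviations from the group mean correlated at 0.199 to 0.248, where the other 9 mice gave 0.547 to 0.721. With all 3 aligners, UNT_9584 was also the mouse whose libraries did not correlate best with each other, and these values do not tell which of its libraries departed. The paper reports that its Ion Torrent read lengths were shifted from those of the other samples. It proposes that read length could be a source of technical variability. Whether this bears on the values here was not tested. Hepatocyte markers were the most abundant of the marker lists, with a summed level of 102641 to 123718 normalised CPM in untreated and 81149 to 92173 in IL-1β mice (Illumina, GSNAP).

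With IL-1β, 22 of the 36 genes fell in all 6 tables and 0 rose in any of them. Those 22 comprised 13 of the 20 mitochondrial, 5 of the 10 peroxisomal and 4 of the 6 uptake and activation genes. Of all genes tested, 17.6% were called lower in all 6 tables and 17.3% higher. In single tables, 24, 24 and 24 genes of the list were lower in the Illumina data (GSNAP, STAR and STAR + Bowtie2), beside 23.9%, 22.9% and 24.4% of all genes tested, and 26, 25 and 25 in the Ion Torrent data, beside 23.9%, 21.8% and 24.0%. Over all genes tested, 23.7%, 22.7% and 22.9% were called higher on Illumina and 22.5%, 20.3% and 22.8% on Ion Torrent. The mice of the 2 groups did not overlap, with IL-1β lower, in all 6 tables for 18 genes of the list (12 mitochondrial, 3 peroxisomal, 3 uptake and activation), against 10.8% of all genes tested, and 11.5% were apart with IL-1β higher. Because the samples are whole liver, less RNA per hepatocyte and fewer hepatocytes cannot be told apart.

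**Figure D1:**
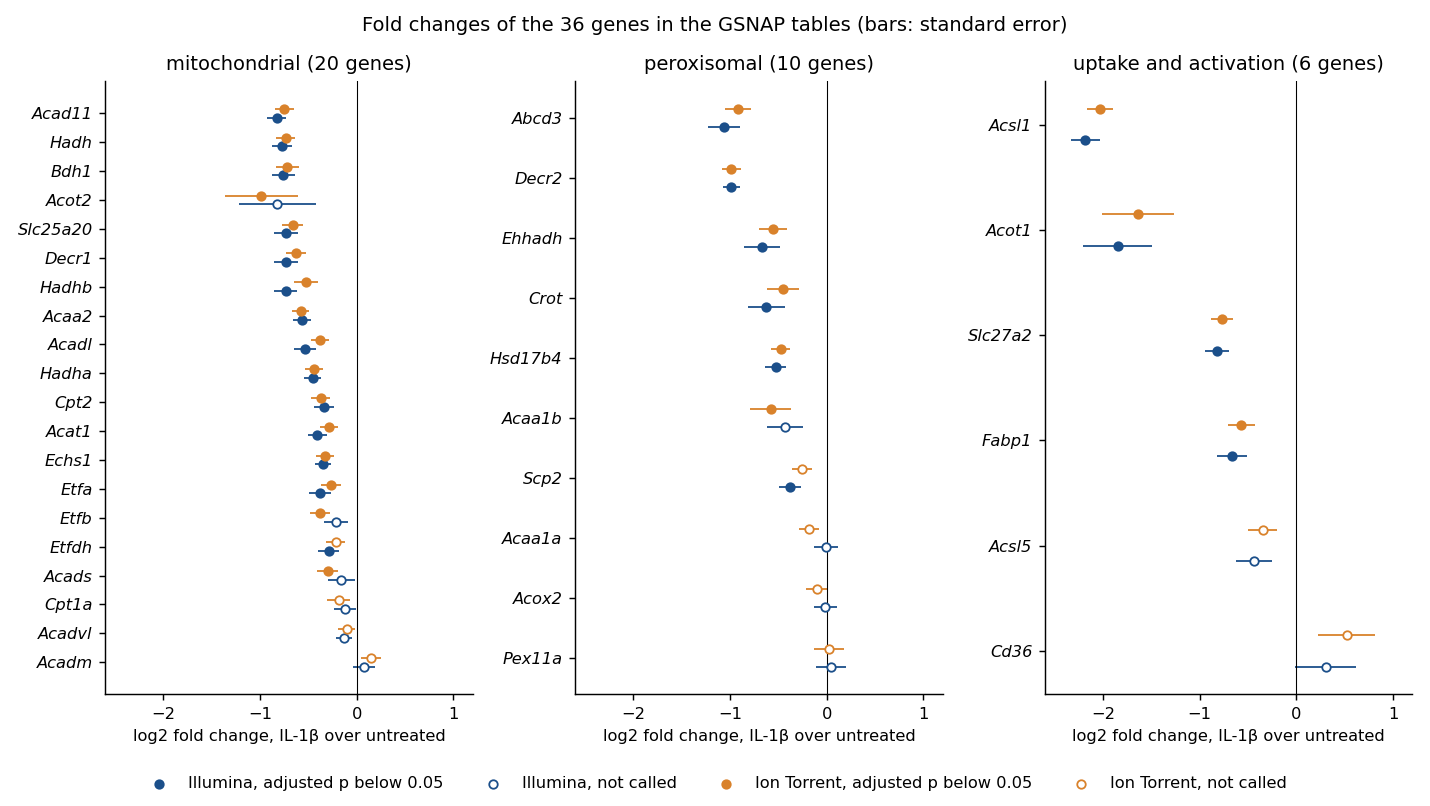
Log2 fold change (x axis, IL-1β over untreated) with its standard error for the 36 genes, by compartment, in the GSNAP tables of Illumina (blue) and Ion Torrent (orange); filled points have an adjusted p below 0.05. Acsl1 at -2.19 and -2.03 lies farthest to the left, and Cd36 at 0.30 and 0.52 farthest to the right without being called.

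The size of the change was modest for most genes. In the Illumina GSNAP table the median log2 fold change was -0.49 over the 36 genes, -0.43 over the mitochondrial, -0.48 over the peroxisomal and -0.75 over the uptake and activation genes, beside 0 over all genes tested. The 10 hepatocyte markers had a median of -0.41 in the same table, with 6 called lower, close to the mitochondrial and peroxisomal medians, and their part in the result was not tested. In the Ion Torrent GSNAP table these medians were -0.44, -0.38, -0.46 and -0.67. The summed level of the 20 mitochondrial genes was 5571 to 6393 normalised CPM in untreated mice and 3968 to 4655 in IL-1β mice (Illumina, GSNAP). For the 10 peroxisomal genes the sums were 5658 to 8040 and 4229 to 5339, and for the 6 uptake and activation genes 6174 to 9426 and 3331 to 4837. None of these 3 sums overlapped between the groups. Untreated mouse UNT_9584 had the highest untreated sum in each of them. The sums weigh abundant genes most. In untreated mice Scp2 alone held 2944 of a mean peroxisomal sum of 6463, and Fabp1 was the largest part of the uptake and activation sum.

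Uptake and activation held the largest changes. Acsl1 (ENSMUSG00000018796, chr8:47556395-47621405, + strand, mm9) encodes the main long-chain acyl-CoA synthetase of the liver. Its untreated levels, in the order of mice given above that is used throughout, were 1235, 1380.2, 1276, 1328 and 1706 normalised CPM in the Illumina GSNAP table. With IL-1β, in the order given above, they were 310.1, 221, 399.8, 303 and 286. The groups lay far apart, at 1385 ± 187 (SD, n = 5) and 304 ± 64.0, a log2 fold change of -2.19 ± 0.15 (adjusted p = 4.75e-08), or 0.220 times the untreated level. On Ion Torrent the untreated mice read 1181, 1319, 1205, 1220.4 and 1415 and the IL-1β mice 321, 234, 411, 303 and 282, with a log2 fold change of -2.03 ± 0.14 (adjusted p = 1.68e-08). Over the 6 tables the log2 fold change of Acsl1 was -2.20 to -2.03.

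Acot1 (ENSMUSG00000072949, chr12:85350448-85358621, + strand) encodes a cytosolic thioesterase that splits acyl-CoA back to free fatty acid and CoA. It was scarce, at 19.6, 26.0, 26.7, 19.7 and 57.7 normalised CPM in untreated mice and 2.58, 9.74, 12.9, 8.21 and 8.08 in IL-1β mice (Illumina, GSNAP). Mouse UNT_9584 alone lay above 30 among the untreated mice, and the groups did not overlap. The log2 fold change was -1.85 ± 0.35 (adjusted p = 5.98e-04). The Ion Torrent values were 18.1, 24.3, 28.0, 22.2 and 61.3 against 2.55, 13.3, 13.9, 10.5 and 8.93, a log2 fold change of -1.64 ± 0.37 (adjusted p = 0.00194).

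Slc27a2 (ENSMUSG00000027359, chr2:126378143-126413979, + strand), the fatty acid transporter and very-long-chain acyl-CoA synthetase FATP2, stood at 1476, 1370.3, 1166, 1712 and 1733 normalised CPM in untreated and 756, 826, 833, 829 and 978 in IL-1β mice (Illumina, GSNAP). Every IL-1β mouse was below every untreated mouse, with a log2 fold change of -0.82 ± 0.12 (adjusted p = 7.57e-05). The Ion Torrent log2 fold change was -0.77 ± 0.12 (adjusted p = 6.29e-05), from 1246, 1155, 924, 1443 and 1239 untreated to 631, 730.5, 682, 712 and 765 with IL-1β.

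Fabp1 (ENSMUSG00000054422, chr6:71149821-71155017, + strand), the liver fatty acid binding protein, had the highest level of the list per kilobase of transcript in all 6 tables. In normalised CPM it was the highest with GSNAP, while Scp2 was above it in untreated mice with STAR (3974 against 3787) and STAR + Bowtie2 (3780 against 3662) on Illumina, by less than the SD between mice. Untreated mice held 3453, 3711, 3309, 4091 and 5268 normalised CPM and IL-1β mice 1956, 2142, 3145, 2624 and 2597 (Illumina, GSNAP). The highest IL-1β mouse, ILB_9579, came close to the lowest untreated mouse without reaching it, and the log2 fold change was -0.67 ± 0.16 (adjusted p = 0.00261). Ion Torrent gave 2722, 2981, 2604, 3510.1 and 3599 against 1646, 1802, 2549, 2351 and 2042, with a log2 fold change of -0.57 ± 0.14 (adjusted p = 0.00309). Fabp1 was apart between the groups in 5 of the 6 tables.

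The promoter of Fabp1 is shown because Fabp1 had the highest level per kilobase and its window held the best match in the list to the PPAR element, 2 copies of AGGTCA in the same direction with 1 base between. It is printed from RefSeq (GRCm38.p6, chr6:71199629-71199928, + strand, from 250 bases before the start site to 50 after it), with the match on the opposite strand in capitals (1 mismatch in 12 scored bases, first base at -67 from the start site):
Fabp1 promoter: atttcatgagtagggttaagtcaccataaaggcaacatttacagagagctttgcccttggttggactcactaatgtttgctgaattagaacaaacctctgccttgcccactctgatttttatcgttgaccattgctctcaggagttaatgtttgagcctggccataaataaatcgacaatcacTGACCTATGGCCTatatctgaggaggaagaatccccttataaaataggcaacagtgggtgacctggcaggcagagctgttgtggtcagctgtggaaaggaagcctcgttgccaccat
Promoters of 32 of the 36 genes were in the RefSeq set, in 36 windows. Allowing at most 2 mismatches on either strand, 6 windows held a match (16.7%), those of Fabp1, Acox2, Cd36, Echs1, Etfa and Slc25a20, beside 3.86% of all 32851 windows. Of those genes, 4 were called lower in all 6 tables and Acox2 and Cd36 in none, so the windows with a match held both kinds.

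The other uptake and activation genes were not called in any table. Acsl5, a long-chain synthetase found in liver and intestine, ranged over 286 to 568 normalised CPM in untreated and 227 to 379 in IL-1β mice (Illumina, GSNAP), and its adjusted p lay between 0.0581 and 0.0865 over the 6 tables. It was called lower in 3 tables by the rank-sum test on unscaled counts, and in all 6 without TMM factors or without mouse ILB_9579. Cd36, a fatty acid translocase, was low and spread widely, at 25.5 to 92.8 in untreated and 37.5 to 74.0 in IL-1β mice. Its log2 fold change was 0.30 ± 0.32 (adjusted p = 0.460) on Illumina and 0.52 ± 0.29 (adjusted p = 0.163) on Ion Torrent with GSNAP. This call rested on mouse UNT_9584: without it Cd36 was called higher in all 6 tables, with a log2 fold change of 0.71 (adjusted p = 0.0322) on Illumina and 0.79 (adjusted p = 0.0299) on Ion Torrent with GSNAP.

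**Figure D2:**
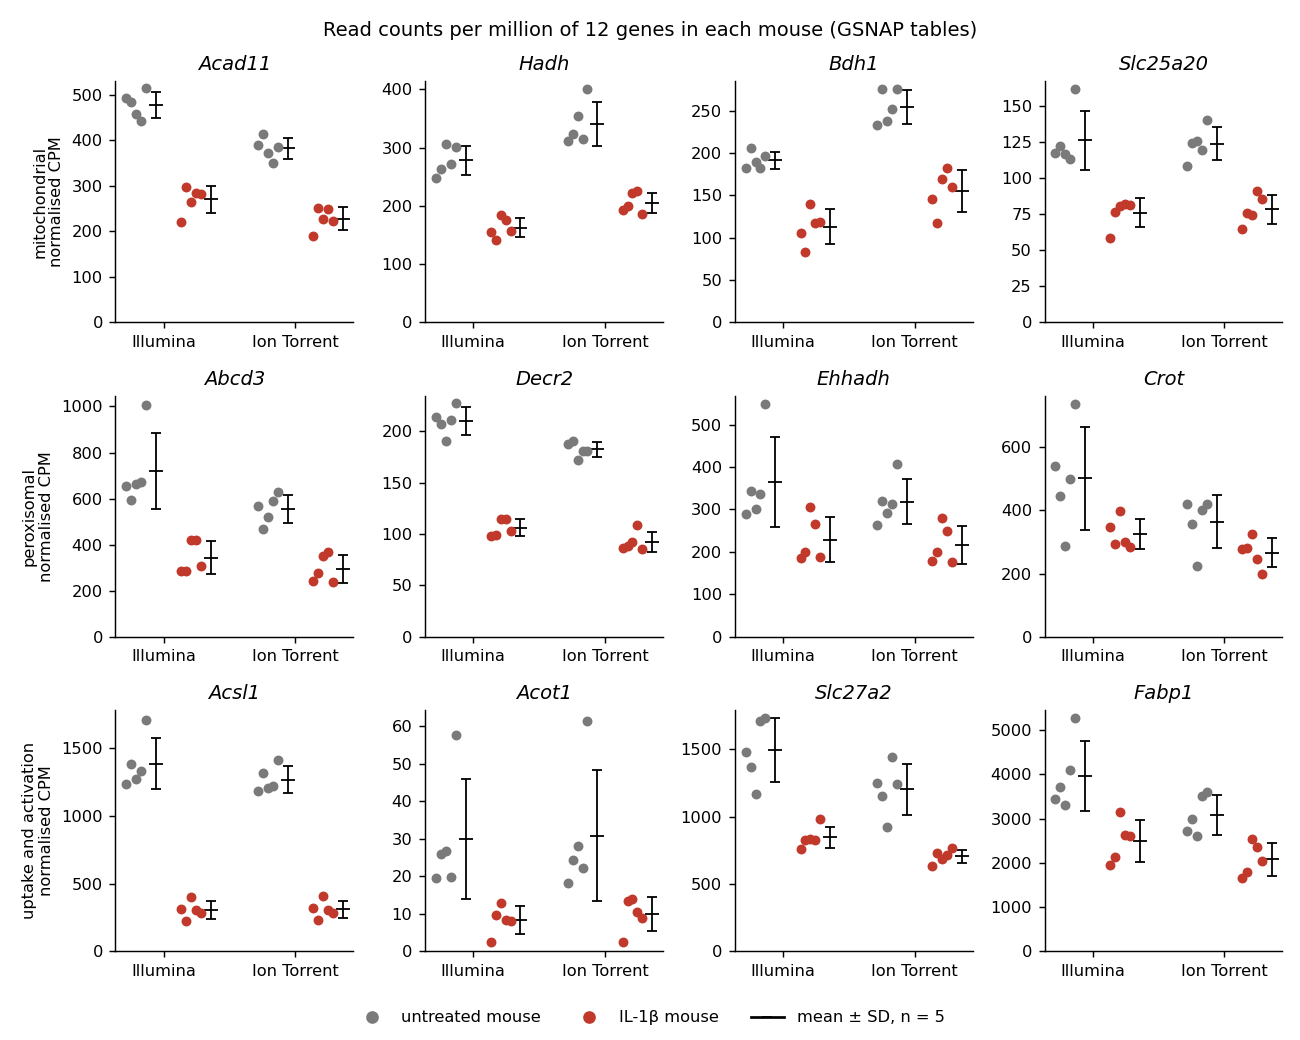
Normalised CPM (y axis, from 0) of 12 genes in each of the 5 untreated (grey) and 5 IL-1β mice (red) in the GSNAP tables of both platforms, with the mean and SD (n = 5) beside each group; rows are compartments. For Acsl1 the untreated mice lie at 1235 to 1706 and the IL-1β mice at 221 to 399.8 on Illumina, while the groups of Ehhadh and Crot overlap.

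In the mitochondrial compartment, the carnitine shuttle divided. Cpt1a, the carnitine palmitoyltransferase of the outer membrane and the regulated entry step, was at 496 ± 59.7 normalised CPM untreated and 456 ± 61.6 with IL-1β (SD, n = 5; Illumina, GSNAP), and it was not called in any table (adjusted p = 0.218 to 0.422). Slc25a20 (ENSMUSG00000032602, chr9:108564429-108586972, + strand), the carrier that exchanges acylcarnitine for carnitine across the inner membrane, fell. Its untreated levels were 117, 122, 116, 113 and 162, and with IL-1β they were 58.3, 76.6, 80.8, 82.2 and 81.4, so the groups were apart (log2 fold change -0.73 ± 0.12, adjusted p = 2.02e-04). Ion Torrent gave 109, 125, 125, 119.8 and 141 against 64.5, 76.0, 74.3, 90.8 and 85.6 (log2 fold change -0.66 ± 0.11, adjusted p = 1.38e-04). Cpt2, which returns the acyl group to CoA in the matrix, was lower in all 6 tables by a smaller amount, with log2 fold changes of -0.38 to -0.34. The difference between the changes of Cpt1a and Slc25a20 was not tested.

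Of the acyl-CoA dehydrogenases, which open each cycle, some were called and others were not. Differences between their changes were not tested. The list used here placed Acad11 with the mitochondrial genes, and where its protein lies was not tested. Acad11 (ENSMUSG00000090150, chr9:103942992-104029976, + strand), a dehydrogenase of long-chain acyl-CoA, stood at 493, 485, 459, 443 and 515 normalised CPM in untreated and 221, 298, 265, 285 and 282 in IL-1β mice (Illumina, GSNAP). The groups were well apart, with a log2 fold change of -0.83 ± 0.10 (adjusted p = 9.57e-06). On Ion Torrent the untreated mice read 389.7, 414, 373, 351 and 386 and the IL-1β mice 189, 251, 227, 248 and 223 (log2 fold change -0.75 ± 0.10, adjusted p = 1.90e-05). Acadl, for long chains, was also lower in all 6 tables, with log2 fold changes of -0.56 to -0.36. Acadvl, for very long chains, and Acadm, for medium chains, were called in 0 tables, with log2 fold changes of -0.13 to -0.07 and 0.07 to 0.17. The rank-sum test used by the study, run on the deposited counts without TMM scaling, so that test and scaling both differed, called Acadvl lower in all 6 tables. Acads, for short chains, was lower in the 3 Ion Torrent tables (adjusted p = 0.0286 to 0.0367) and not called in the 3 Illumina tables (adjusted p = 0.355 to 0.369), and with GSNAP the Ion Torrent call was lost without any 1 of 5 mice.

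The hydratase, hydroxyacyl-CoA dehydrogenase and thiolase steps were lower throughout. All 6 genes listed there (Hadha, Hadhb, Echs1, Hadh, Acaa2 and Decr1) were called lower and had groups that did not overlap in all 6 tables. Hadh (ENSMUSG00000027984, chr3:130936337-130975019, - strand), the dehydrogenase for short chains, was at 248, 263, 305, 272 and 300.2 normalised CPM untreated and 156, 142, 184, 175 and 156 with IL-1β (Illumina, GSNAP; log2 fold change -0.77 ± 0.10, adjusted p = 1.81e-05). The Ion Torrent values were 311, 324, 354, 315 and 401 against 193, 199, 222, 225 and 185, and the log2 fold change was -0.74 ± 0.10 (adjusted p = 2.97e-05).

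Acaa2 (ENSMUSG00000036880, chr18:74938851-74965861, + strand), the matrix thiolase that releases acetyl-CoA, was the most abundant mitochondrial gene of the list. It read 780.2, 831, 913, 912 and 798 in untreated and 539, 525, 605, 581 and 612 in IL-1β mice, a log2 fold change of -0.56 ± 0.09 (adjusted p = 1.76e-04). Ion Torrent levels of Acaa2 were 1130.0, 1237, 1203, 1249 and 1231 against 773, 739.8, 839, 815 and 879, with a log2 fold change of -0.58 ± 0.09 (adjusted p = 7.90e-05).

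Decr1, a reductase needed for unsaturated fatty acids, fell by 0.74 on the log2 scale on Illumina and 0.63 on Ion Torrent with GSNAP, and Echs1, the short-chain hydratase, fell by 0.35 and 0.33.

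Hadha and Hadhb encode the α and β subunits of the trifunctional protein, which carries the last steps of the cycle for long chains. The genes lie head to head on chromosome 5, with RefSeq start sites 273 bases apart (GRCm38.p6), and both fell in every table, Hadha by 0.43 to 0.47 and Hadhb by 0.50 to 0.73 on the log2 scale. The 228 bases that belong to the windows of both genes are shown because they lie before the start of each (RefSeq, GRCm38.p6, chr5:30155003-30155230, + strand, with no part marked):
Hadha and Hadhb shared region: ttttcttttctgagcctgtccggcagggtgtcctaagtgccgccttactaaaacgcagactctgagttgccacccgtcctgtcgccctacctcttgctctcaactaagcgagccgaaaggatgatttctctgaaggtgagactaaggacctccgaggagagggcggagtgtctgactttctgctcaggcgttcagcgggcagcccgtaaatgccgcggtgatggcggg
How far the measured levels of Hadha and Hadhb matched depended on aligner and platform. With GSNAP on Illumina, untreated mice held 92.8 ± 4.82 normalised CPM per kilobase of transcript for Hadha and 20.7 ± 4.02 for Hadhb. With STAR these were 91.3 ± 4.81 and 103 ± 13.2 on Illumina, and 108 ± 6.26 and 41.9 ± 2.15 on Ion Torrent. In normalised CPM, Hadhb was at 42.4 ± 8.22 in untreated mice with GSNAP on Illumina. Hadhb was at 211 ± 27.0 when STAR placed the reads and at 199.9 ± 28.1 after STAR + Bowtie2. On Ion Torrent it read 36.2 ± 1.96, 85.7 ± 4.39 and 84.7 ± 3.47 by aligner in the same order.

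The annotation holds a pseudogene, Gm13910 (chr2:108788953-108790885, mm9), whose sequence is 99.7% identical to 94.5% of the Hadhb transcript. With GSNAP, Gm13910 held 79.9% of the counts of the pair on Illumina and 70.5% on Ion Torrent, while STAR gave it 0.988% and 1.06% and STAR + Bowtie2 2.61% and 25.6%. The sum of gene and pseudogene in untreated mice was 206, 213 and 205 normalised CPM on Illumina and 122, 86.7 and 113 on Ion Torrent. From these sums the log2 fold change of Hadhb was -0.64 ± 0.11 (adjusted p = 2.36e-04) on Illumina and -0.51 ± 0.11 (adjusted p = 0.00106) on Ion Torrent with GSNAP, so the direction and the call did not depend on where the reads were placed. Levels in different tables were normalised separately and were not tested against each other.

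**Figure D3:**
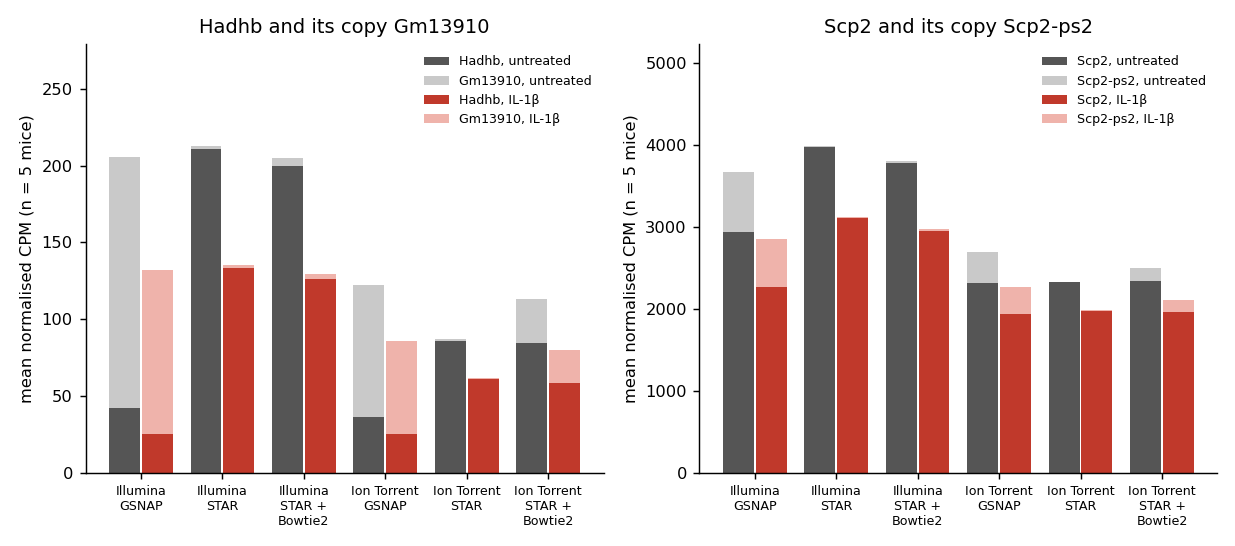
Mean normalised CPM (y axis, from 0, n = 5 mice) of Hadhb and of Scp2 (dark) stacked with their annotated pseudogene copies Gm13910 and Scp2-ps2 (pale), for untreated (grey) and IL-1β (red) mice in the 6 tables. With GSNAP most counts of the Hadhb pair stand on Gm13910, and the sum of the pair is lower with IL-1β in every table.

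The electron transfer genes, which pass electrons from the dehydrogenases to the respiratory chain, were called less evenly. Etfa was lower in all 6 tables (log2 fold changes of -0.39 to -0.27). Etfb was called lower in the 3 Ion Torrent tables (adjusted p = 0.0050 to 0.0119) and not on Illumina (adjusted p = 0.156 to 0.210), and Etfdh in the 3 Illumina tables (adjusted p = 0.0341 to 0.0459) and not on Ion Torrent (adjusted p = 0.0604 to 0.102). The rank-sum test on unscaled counts called Etfdh lower in all 6, and the Illumina call of Etfdh with GSNAP was lost without any 1 of 4 mice. Etfa lost its call on Ion Torrent with GSNAP without any 1 of 7 mice, with an adjusted p of up to 0.128.

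The ketone body genes of the list both fell. Bdh1 (ENSMUSG00000046598, chr16:31422366-31458987, + strand), which interconverts acetoacetate and 3-hydroxybutyrate, was at 182, 206, 189, 182 and 196 normalised CPM untreated and 106, 83.1, 140.1, 117 and 119 with IL-1β (Illumina, GSNAP). The untreated mice were tightly grouped and every IL-1β mouse lay below them (log2 fold change -0.76 ± 0.12, adjusted p = 1.15e-04). On Ion Torrent Bdh1 read 233, 275, 238, 252 and 276 against 145, 117, 169, 183 and 159 (log2 fold change -0.72 ± 0.12, adjusted p = 1.27e-04). Acat1, the acetoacetyl-CoA thiolase, had log2 fold changes of -0.41 to -0.28. On Ion Torrent with GSNAP its adjusted p rose from 0.0171 to 0.0512 without mouse ILB_9577, and over the 6 tables together Acat1 no longer counted as lower in all of them when any 1 of 8 mice was left out.

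Acot2, a mitochondrial thioesterase, was the least abundant gene of the list, at 1.82 to 5.01 normalised CPM in untreated and 0.356 to 3.25 in IL-1β mice on Illumina with GSNAP. It was called lower only in the Ion Torrent GSNAP table (log2 fold change -0.99 ± 0.38, adjusted p = 0.0437), a call lost without any 1 of 5 mice (adjusted p up to 0.149), and its log2 fold change ranged from -0.99 to -0.31 over the 6 tables. Acot2 (chr12:85328811-85334823) and Acot1 lie near each other on chromosome 12 (mm9) and their coding sequences are 95.2% identical (59 different bases in 1239 aligned), and 30.9% of the windows of 100 bases in the coding sequence of Acot1 occur unchanged in that of Acot2. The first 120 coding bases of Acot1 and the matching coding bases 124 to 243 of Acot2 are shown from the Ensembl transcripts on mm9. This stretch holds more differences for its length than the aligned coding sequences as a whole, and capitals mark the 13 bases that differ:
Acot1: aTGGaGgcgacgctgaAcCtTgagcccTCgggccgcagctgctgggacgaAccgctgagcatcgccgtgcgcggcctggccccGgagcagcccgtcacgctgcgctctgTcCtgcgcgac
Acot2: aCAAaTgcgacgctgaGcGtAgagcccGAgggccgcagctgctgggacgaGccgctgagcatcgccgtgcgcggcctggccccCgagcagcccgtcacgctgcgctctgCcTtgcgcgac
How counts were divided between Acot1 and Acot2 was not tested, so the values of each are uncertain to that extent.

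In the peroxisome, the transporter Abcd3 and the reductase Decr2 led the list. Abcd3 (ENSMUSG00000028127, chr3:121461827-121518220, - strand) encodes PMP70, which carries branched and dicarboxylic acyl-CoA into the peroxisome. Its untreated levels were 656, 595, 663, 673 and 1008 normalised CPM and those with IL-1β 283, 287, 421, 422 and 306 (Illumina, GSNAP). Although mouse UNT_9584 was far above the other untreated mice, the lowest untreated mouse still exceeded every IL-1β mouse, and the log2 fold change was -1.06 ± 0.16 (adjusted p = 9.35e-05). The Ion Torrent values were 568, 469.9, 521, 589 and 629 against 243, 277, 351, 366 and 237 (log2 fold change -0.91 ± 0.14, adjusted p = 5.41e-05).

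Decr2 (ENSMUSG00000036775, chr17:26218156-26227274, - strand), the peroxisomal dienoyl-CoA reductase for unsaturated acids, varied little within the groups. It was at 214, 208, 190.1, 211 and 228 normalised CPM in untreated and 98.0, 99.4, 115, 115 and 103 in IL-1β mice (Illumina, GSNAP), 0.505 times the untreated level (log2 fold change -0.99 ± 0.09, adjusted p = 6.29e-07). On Ion Torrent it read 188, 191, 172, 181 and 181 against 86.5, 88.1, 91.9, 109 and 85.9, and the log2 fold change was -0.98 ± 0.09 (adjusted p = 7.10e-07). Its 6 log2 fold changes lay between -1.0 and -0.96, the narrowest range among the 4 peroxisomal genes with values for every mouse that were called in all 6 tables.

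Ehhadh (ENSMUSG00000022853, chr16:21761360-21787917, - strand), the bifunctional hydratase and dehydrogenase, and Crot (ENSMUSG00000003623, chr5:8966033-8997324, - strand), the carnitine octanoyltransferase that exports shortened chains, were called lower in all 6 tables although their groups overlapped. Ehhadh was at 289.8, 343, 301, 337 and 549.6 normalised CPM untreated and 185, 200.2, 306, 265 and 189 with IL-1β on Illumina (log2 fold change -0.67 ± 0.19, adjusted p = 0.00817). On Ion Torrent it was at 264, 319, 291, 313 and 406 against 179.5, 199, 279, 249 and 175 (log2 fold change -0.56 ± 0.15, adjusted p = 0.00542). The overlap came from IL-1β mouse ILB_9579, which lay above the lowest untreated mice. Crot read 539, 445, 288, 499 and 736 against 348, 294, 397, 301 and 285 on Illumina (log2 fold change -0.63 ± 0.19, adjusted p = 0.0143). Its Ion Torrent values were 420.1, 356, 222, 402 and 420.2 against 279, 280.1, 326, 247 and 199 (log2 fold change -0.45 ± 0.17, adjusted p = 0.0362). Untreated mouse UNT_9576 had as little Crot as the IL-1β mice on both platforms, and the Ion Torrent call with GSNAP was lost when any 1 of 7 mice was left out, with an adjusted p of up to 0.0906. The rank-sum test on unscaled counts called Crot in 0 tables. Hsd17b4, the other bifunctional enzyme, was lower and apart in all 6 tables (log2 fold changes of -0.54 to -0.46).

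Scp2 (ENSMUSG00000028603, chr4:107716444-107817603, - strand), the sterol carrier protein whose long form is a thiolase for branched chains, was the most abundant peroxisomal gene of the list. It was at 3059.6, 2968, 2517, 2691 and 3487 normalised CPM in untreated and 2089, 2164, 2502, 2309.7 and 2272 in IL-1β mice (Illumina, GSNAP), and the groups did not overlap by a small margin (log2 fold change -0.38 ± 0.11, adjusted p = 0.0119). The Ion Torrent groups, 2568, 2379.6, 1982, 2221 and 2412 against 1718, 1978, 2119.7, 2029 and 1841, overlapped, and Scp2 was not called there (log2 fold change -0.26 ± 0.10, adjusted p = 0.0525), while the rank-sum test on unscaled counts called it lower in all 6 tables. Scp2 has a near-identical pseudogene too: Scp2-ps2 on chromosome 9 matches 52.6% of its transcript at 99.6% identity and held 20.1% of the counts of the pair on Illumina and 14.2% on Ion Torrent with GSNAP, against 0.420% and 0.0852% with STAR. With the counts of the copy added, the adjusted p was 0.0151 on Illumina and 0.0562 on Ion Torrent with GSNAP. Less similar partial copies were found for Acadm, Etfa and Decr2. Their best matches were 93.6% identical over 61.6% of the transcript, 93.0% over 35.7% and 91.4% over 13.8%. The counts on these copies were not examined.

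Acox2, the oxidase for branched chains and bile acid intermediates, Acaa1a, a thiolase, and Pex11a, a factor of peroxisome division, were called in no table, with adjusted p of at least 0.123 and log2 fold changes between -0.19 and 0.07. Acaa1b, the other thiolase of the pair, was called lower in the 3 Ion Torrent tables (adjusted p = 0.0344 to 0.0364) and not on Illumina (adjusted p = 0.0562 to 0.0712), and with GSNAP the Ion Torrent call was lost without any 1 of 5 mice. The rank-sum test on unscaled counts called Acaa1a in 3 tables. Acaa1a (chr9:119250412-119259413, mm9) and Acaa1b (chr9:119057141-119066211) are 96.5% identical over 1275 coding bases, and 24.1% of their windows of 100 bases are shared, so their counts may be divided between them. The first 120 coding bases of each are shown from the Ensembl transcripts on mm9, with the 4 bases that differ in capitals:
Acaa1a: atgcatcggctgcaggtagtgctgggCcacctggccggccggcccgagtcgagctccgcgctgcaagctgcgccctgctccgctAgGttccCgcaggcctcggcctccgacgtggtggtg
Acaa1b: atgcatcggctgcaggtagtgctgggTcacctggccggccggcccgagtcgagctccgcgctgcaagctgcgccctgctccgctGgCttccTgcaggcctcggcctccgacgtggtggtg

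Levels of the genes were ranked per kilobase of the longest coding transcript, in untreated mice of the Illumina GSNAP table. Fabp1 led at 7173 ± 1421 normalised CPM per kilobase (SD, n = 5), followed by Scp2 at 1115 ± 141, Acaa2 at 559 ± 41.4 and Slc27a2 at 511 ± 81.8. Acaa2 and Slc27a2 did not differ beyond their spread, nor did Slc27a2 and Acaa1b at 417 ± 97.3. Acsl1 fell from 356 ± 48.2 to 78.1 ± 16.4 per kilobase. At the other end stood Hadhb at 20.7 ± 4.02, Acot1 at 19.1 ± 10.2, Cd36 at 13.2 ± 7.70 and Acot2 at 1.41 ± 0.551. The place of Hadhb depended on the aligner: it was at 103 per kilobase with STAR and 97.7 with STAR + Bowtie2 on Illumina, since most counts of the pair stood on Gm13910 with GSNAP.

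The spread among mice was summarised over the genes. For each mouse, the median over the genes of its log2 difference from the untreated mean was taken in the Illumina GSNAP table. Over the 36 genes it was -0.64, -0.50, -0.32, -0.41 and -0.55 in the IL-1β mice and -0.10, -0.03, -0.07, -0.07 and 0.30 in the untreated mice. In these medians mouse UNT_9584 stood above the other untreated mice, most in uptake and activation (0.51) and least in the mitochondrial genes (0.19). On Ion Torrent its median over the 36 genes was 0.13. Not every gene followed. With GSNAP, UNT_9584 held 1046 counts of Acads on Illumina, the lowest untreated mouse, and 3665 on Ion Torrent, the highest. The same held for Etfb (1919 and 4790) and Acaa1a (1133 and 4043). Among the IL-1β mice, ILB_9577 had the lowest and ILB_9579 the highest median over the 36 genes in all 6 tables. In the peroxisomal genes ILB_9583 was lowest on both platforms with GSNAP (-0.63 and -0.68). These medians are descriptions, since untreated mice also define the reference.

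**Figure D4:**
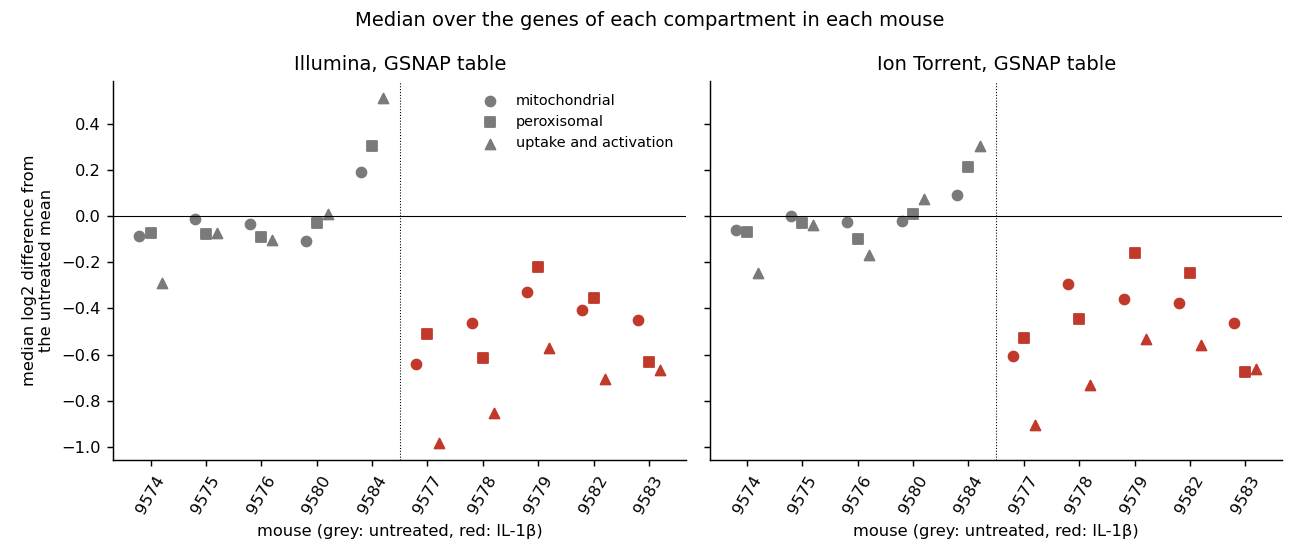
Median log2 difference from the mean of the untreated mice (y axis) over the genes of each compartment for each mouse (x axis), in the GSNAP tables of Illumina and Ion Torrent; circles are mitochondrial, squares peroxisomal, triangles uptake and activation genes, grey untreated and red IL-1β mice. Untreated mouse UNT_9584 lies above the other untreated mice, and the IL-1β mice lie below 0 in every compartment.

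Whether the platforms gave different effects was tested with the platform-by-treatment term of edgeR with the mouse as a block. It was called in 0 of the 36 genes with each aligner, beside 0.0642%, 0.00642% and 0.0770% of all genes tested, by aligner in the order above. At an unadjusted p below 0.05 there were 1, 1 and 2 of the 36 genes, where all genes gave 7.80%, 7.0% and 7.77%. limma-voom and DESeq2 with the same block also called 0. Acsl1 was the gene of the list with an unadjusted p below 0.05 for all 3 aligners (0.0359, 0.0153 and 0.0246), with a smaller fall on Ion Torrent by 0.15 ± 0.07, 0.17 ± 0.07 and 0.15 ± 0.06 on the log2 scale, but its adjusted p was 0.609, 0.695 and 0.621. The calls of Acads, Etfb, Etfdh, Acaa1b and Scp2 on 1 platform alone were therefore not shown to be a difference between the platforms.

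The other genes of these pathways were read from a separate list of 90 genes, 88 of them detected. Of these, 46 were lower in all 6 tables, 9 were higher in all 6 and 21 were called in none, beside 17.6% and 17.3% of all genes tested for lower and higher. By group, 14 of 21 further mitochondrial oxidation genes, 11 of 16 further peroxisomal oxidation genes, 6 of 14 further peroxins, 6 of 16 further uptake and activation genes, 4 of 7 further ketone body genes and 5 of 14 genes of transcriptional control were lower in all 6. Among genes called in all 6 tables with a mean count of at least 100, thioesterases and a transporter had the largest falls. Acot4 went from 43.6 ± 24.3 to 6.53 ± 1.90 normalised CPM (SD, n = 5; Illumina, GSNAP; log2 fold change -2.74 ± 0.33, adjusted p = 8.92e-06). Acot3 had a log2 fold change of -1.99 ± 0.68 (adjusted p = 0.0258), Abcd2, a transporter of very-long-chain acyl-CoA, one of -1.38 ± 0.27 (adjusted p = 7.57e-04) and Acot12, a cytosolic acetyl-CoA thioesterase, one of -1.39 ± 0.12 (adjusted p = 3.78e-07). Acot3 and Acot4 belong to the same gene cluster as Acot1 and Acot2.

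Genes that rose did so against that direction. Fabp4, a fatty acid binding protein of adipocytes and macrophages, rose from 5.53 ± 1.03 to 16.1 ± 4.58 normalised CPM (log2 fold change 1.54 ± 0.20, adjusted p = 1.64e-05) and Fabp5, a relative of it, from 24.5 ± 10.2 to 56.0 ± 20.8 (1.19 ± 0.28, adjusted p = 0.00245). Lpin1, a phosphatidate phosphatase that also acts as a coactivator of PPARα, rose from 328 ± 147 to 816 ± 346 (1.32 ± 0.32, adjusted p = 0.00344). Slc16a1, the monocarboxylate transporter that ketone bodies use, rose from 53.2 ± 16.7 to 115 ± 29.9 (1.12 ± 0.20, adjusted p = 3.48e-04). The following genes were chosen after their values were seen, for their place in the pathway. Ppara, which encodes PPARα, was at 123 ± 24.9 normalised CPM untreated and 127 ± 23.2 with IL-1β (adjusted p = 0.835) and was not called in any table. Ppargc1a, a coactivator of PPARα, fell from 9.5 ± 3.67 to 3.85 ± 2.53 (log2 fold change -1.30 ± 0.34, adjusted p = 0.00574). Ppargc1b, a related coactivator below that mean count, fell from 5.65 ± 3.42 to 0.848 ± 0.589 (log2 fold change -2.71 ± 0.46, adjusted p = 2.26e-04). Of the 14 genes of transcriptional control, 5 were lower in all 6 tables, 2 were higher (Lpin1 and Hnf4a) and 7 were neither. The mean log2 fold change over the 6 tables was 0.99 for Hnf4a, -1.27 for Esrra and -1.24 for Sirt3. Rxra was called in no table.

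**Figure D5:**
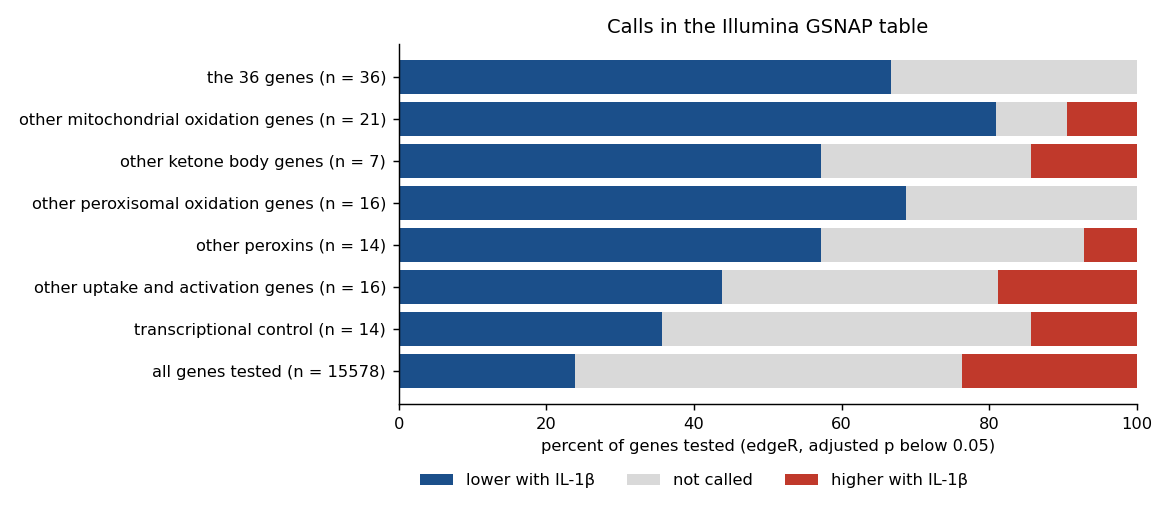
Percent of genes tested (x axis) called lower (blue), not called (grey) and called higher (red) with IL-1β in the Illumina GSNAP table, for the 36 genes, the further pathway groups and all 15578 genes tested. Of the 36 genes, 24 are lower and 0 higher, against 23.9% and 23.7% of all genes.

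Markers of other cell types also moved with treatment. All 6 detected neutrophil markers of 10 listed (S100a8, S100a9, Csf3r, Cxcr2, Retnlg and Ngp) rose. Their summed level went from 2.51 to 5.39 normalised CPM in untreated mice to 52.5 to 110.1 in IL-1β mice (Illumina, GSNAP). Ngp was at 0 in every untreated mouse. A marker near 0 in untreated mice could pass the minimum for detected genes only through the IL-1β libraries. The minimum thus favoured markers that rose. Of the 10 hepatocyte markers, 6 were lower, 1 was higher (Tat) and 3 were not called, and their summed level did not overlap between the groups. The summed Kupffer cell or macrophage markers were at 138 to 236 and 74.8 to 174, endothelial markers at 124 to 188 and 93.4 to 156, stellate cell or fibroblast markers at 268 to 351 and 183 to 308, and lymphocyte markers at 1.76 to 3.72 and 0.760 to 1.49. The 2 detected adipocyte markers summed to 1.27 to 5.80 and 6.59 to 20.2, and the sums of the first 3 of these lists overlapped between the groups. The part of these markers in the results for the 36 genes was not tested.

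Leaving out each mouse in turn, 19 to 24 genes of the list were lower in all 6 tables, beside 2458 to 2614 of all genes. The count was 19 without any 1 of mice ILB_9577, ILB_9583, UNT_9575, UNT_9580 and UNT_9584, and the genes lost when mice were left out were Etfa, Acat1 and Crot. Some genes overlap others on mm9, among them Acad11 (Ccrl1), Acaa1a (Myd88), Acadvl (Dvl2), Acsl5 (Zdhhc6) and Slc27a2 (Gm16762), and whether the counting used the strand is not given in the sources used here.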

How the data were processed

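RNA from the livers of 10 mice was sequenced as 20 libraries on both platforms. The deposited values are counts per gene, which the authors made by aligning the reads to mm9 with GSNAP, STAR 2.5.1b or STAR followed by Bowtie2 2.2.9, and then with PORT, which removed rRNA and mitochondrial DNA reads, drew every library of a table down to the size of its smallest and counted reads per Ensembl gene. The tables were therefore normalised separately, and libraries were compared within a table. Depth was 10568530 to 16439680 counts per library.

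A gene was tested if, in any table, 5 or more of the 10 libraries held 5 or more reads of it (15578 genes). Counts were fitted with edgeR 4.0.16 (R 4.3.3) with TMM factors, by the two-sided quasi-likelihood test, and p-values were adjusted by Benjamini-Hochberg over all genes tested. The standard error is the size of the log2 fold change divided by the square root of F. The platform-by-treatment term was fitted per aligner on 20 libraries, with a block for each mouse; libraries of 1 mouse share the same RNA, and their deviations from the group correlated at 0.199 to 0.721. No libraries were near-identical. The mice are the replicates, 5 per group.

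The genes, lists and comparisons were chosen with earlier results of these data known. Values of every mouse are given for up to 4 genes per compartment with the largest mean change among those called the same way in all 6 tables, for the most abundant gene of each compartment, for genes called in opposite directions in 2 tables (there were 0), and for genes with an unadjusted p below 0.05 for the platform term with all 3 aligners. Other pathway genes were named by size of change (up to 4 lower and 4 higher, mean count of at least 100).

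Alternatives were the rank-sum test used by the study on the deposited counts (which also leaves out TMM scaling), limma-voom 3.58.1, DESeq2 1.42.0, RLE size factors or none, other filters on low counts, an absolute log2 fold change above 1, the fit without the block and leaving out each mouse. Adding the counts of pseudogene copies was chosen after seeing the data. Data were simulated from the Illumina GSNAP table, with 200 of 15578 genes changed by 1.5 on the log2 scale. There edgeR called 200 of the 200 and 10 unchanged genes. Of the same 200 genes, limma-voom called 198, DESeq2 200 and the rank-sum test 0. The 0 was fixed by the setting. With so few mice per group, the smallest rank-sum p-value cannot pass the adjustment when only 200 of 15578 genes change. The simulation therefore does not tell how well the rank-sum test recovers changes. On the deposited counts that test called 35.7% (Ion Torrent, STAR) to 40.1% (Illumina, GSNAP) of the genes tested. Recovery of smaller changes, such as the median of -0.49 over the 36 genes in the Illumina GSNAP table, was not tested.

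Gene positions are from the GENCODE annotation on mm9, and copies were searched in that genome with BLAST+ 2.17.0 (at least 90% identity over at least 300 bases). Promoters are RefSeq sequences on GRCm38.p6. Some genes of these pathways are not reported here.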

Additional observations from a re-analysis of the deposited data

Results flagged for a closer look

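Among the 14 genes with values for every mouse, each group of 5 mice was checked in both GSNAP tables for a mouse far from the other 4, by the gap to its nearest neighbour as a share of the range. The limit was set so that chance flags about 1 group in 20. Of 56 groups, 7 were flagged. The groups are genes and platforms of the same 10 mice and are not independent, so their number cannot be set against that rate.

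Untreated mouse UNT_9584 stood apart in 5 of them, and it was the highest untreated mouse each time. On Illumina it held 1008 normalised CPM of Abcd3 (others 595 to 673), 57.7 of Acot1 (others 19.6 to 26.7), 549.6 of Ehhadh (others 289.8 to 343) and 162 of Slc25a20 (others 113 to 122), and on Ion Torrent 61.3 of Acot1 (others 18.1 to 28.0). IL-1β mouse ILB_9582 held 109 of Decr2 on Ion Torrent (others 85.9 to 91.9), and IL-1β mouse ILB_9577 held 58.3 of Slc25a20 on Illumina (others 76.6 to 82.2). What sets these mice apart was not tested.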

How the results depend on the processing

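Of 308 counts recomputed under an alternative, 293 stayed within 1.5 times the reported value or, where that was 0, stayed at 0. The counts of genes called higher and of platform terms were 0 in the main fit and made up most of the 308. For medians, 264 of 270 moved by less than the spread between mice. Of 1368 values for single genes, 1224 kept direction and call, 89 lost a call, 30 gained one and 25 changed sign. The count of listed genes lower in all 6 tables was 24 with the rank-sum test on unscaled counts, which changes test and scaling together. It was 22 with limma-voom and DESeq2, 27 without TMM factors, and 20 with RLE size factors or with no filter. It was 21 with the filter set on each table alone and 19 to 24 without 1 mouse. Over all genes the main fit gave 2741, the rank-sum test 2612, limma-voom 2694 and DESeq2 2749. Without TMM factors it was 3324, with RLE size factors 2694 and with no filter 2606. The filter on each table alone gave 2679, and leaving out 1 mouse 2458 to 2614. Requiring an absolute log2 fold change over 1 in addition left 2 genes of the list lower in all 6 tables (Acsl1 and Acot1). It left 3 lower in every Illumina table and 2 in every Ion Torrent table. Over all 15578 genes tested, that rule left 997 lower in all 6 tables and 8.88% to 9.43% lower in single tables. Under this rule the list was not lower more often than genes in general. Without 1 mouse, 0 to 1 gene was higher in each table and in all 6 (Cd36 without mouse UNT_9584, and 1 gene in the Ion Torrent STAR table without mouse ILB_9583). Without TMM factors the mitochondrial medians were -0.55, -0.55 and -0.54 on Illumina and -0.49, -0.47 and -0.49 on Ion Torrent, where the median over all genes averaging 10 or more counts moved to between -0.13 and -0.09. Signs turned for genes that were not called. On Illumina with GSNAP, Acadm became -0.095 on the unscaled counts of the rank-sum test and -0.045 without TMM factors, Pex11a -0.12 and -0.071 under the same changes, Acaa1a 0.0022 with limma-voom and 0.011 with no filter, and Acox2 0.010 with no filter. On Ion Torrent with GSNAP, Acadm became -0.0040 on the unscaled counts and Pex11a -0.12 on them and -0.080 without TMM factors. Leaving out 1 mouse gave -0.087 to 0.036 for Acox2, -0.089 to 0.073 for Acaa1a and -0.031 to 0.22 for Pex11a on Illumina, and -0.056 to 0.20 for Pex11a on Ion Torrent. The cause of these changes was not tested. The platform term was fitted with the mouse as a block, and with no replicate block it also called 0 of the 36 genes with each aligner; the treatment groups share no mice, so no pairing applies there. Adding the copies' counts to Hadhb and Scp2, chosen after seeing the data, left the count at 22. Depth limits Acot2 most, with a mean of 28.1 counts on Illumina with GSNAP.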
